A study of Mus musculus with 8 samples.

Results

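The interferon-stimulated genes described here are a list of 35 effector and regulator genes, taken by gene symbol from the probe sets of 8 arrays of mouse skin RNA. Of the 35, 32 had a probe set that carries their symbol alone, out of 18193 such genes on the arrays. Isg15, the ubiquitin-like modifier, and Trex1, a DNA exonuclease, were on 2 probe sets that list several genes, and Ifi44 was not matched, so these 3 genes were not analysed here. Each gene was given by the probe set with the highest mean over the 8 arrays, in the deposited log2 signal, on which a difference of 1 is a doubling. All 35 names are accounted for below.

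The samples were whole dorsal skin of Balb/c mice. In the DNCB+HY209 group (n = 3) the skin was painted for 15 days with DNCB (1-chloro-2,4-dinitrobenzene), a hapten that provokes contact allergy, with a gel of 5% HY209 over the last 7 days. The DNCB group (n = 3) had the same DNCB course with vehicle over the last 7 days. The sham group (n = 2) had neither agent by its titles and source names, but its protocol fields carry the DNCB text, a doubt that bears on every comparison against sham. The labels give no age or sex. Nothing in them says whether each array stands for an animal of its own, so the p-values reflect only the spread between these samples, which may be technical.

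Type I and type III interferons bind cell surface receptors, whose kinases switch on transcription factors. STAT2 and IRF9 are part of a complex that binds the interferon-stimulated response element (ISRE) in promoters, whereas type II interferon acts mainly at the gamma-activated site (GAS). The genes switched on in this way block viral entry, translation and replication, and others feed back on the pathway. In skin, keratinocytes, resident immune cells and recruited leukocytes can all carry the response.

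The promoters of a few members are shown because they carry the letters these factors are known to bind. RefSeq promoters of GRCm38.p6, an assembly of the C57BL/6J strain and not of Balb/c, were searched on both strands from 250 bases before to 50 bases after each gene's start. The ISRE letters, GAAA followed by any 2 bases and GAAA again, were in 9 of 28 members with a promoter in the table, against 3.99% of all 27025 genes with one. These were Stat2, Isg15, Ifit1, Ifit3, Eif2ak2, Rsad2, Ifitm2, Ifitm3 and Bst2. The GAS letters TTCNNNGAA were in 9 of 28 members, against 9.55% of all genes, namely Irf1, Ifit2, Eif2ak2, Adar, Isg20, Samhd1, Ifitm3, Bst2 and Ifi35. By promoter, 3.44% of 32851 held the ISRE letters and 8.30% the GAS letters. The 250 bases before the start are given 5′ to 3′ on the gene's strand. Capitals mark the ISRE letters in Ifit1 (chr19:34640639-34640888, plus strand), Ifit3 (chr19:34583279-34583528, plus strand), Rsad2 (chr12:26456453-26456702, minus strand) and Bst2 (chr8:71537473-71537722, minus strand), and the GAS letters in Irf1 (chr11:53769764-53770013, plus strand).
Ifit1: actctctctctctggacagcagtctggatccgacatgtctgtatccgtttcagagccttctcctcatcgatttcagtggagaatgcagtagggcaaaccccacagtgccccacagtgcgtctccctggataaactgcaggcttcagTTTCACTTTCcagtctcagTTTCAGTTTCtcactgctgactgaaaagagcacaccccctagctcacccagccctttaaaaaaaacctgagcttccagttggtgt
Ifit3: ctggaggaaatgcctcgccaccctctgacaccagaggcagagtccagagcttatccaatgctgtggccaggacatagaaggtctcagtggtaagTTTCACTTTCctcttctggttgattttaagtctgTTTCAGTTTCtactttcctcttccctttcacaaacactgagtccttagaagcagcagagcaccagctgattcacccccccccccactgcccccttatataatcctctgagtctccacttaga
Rsad2: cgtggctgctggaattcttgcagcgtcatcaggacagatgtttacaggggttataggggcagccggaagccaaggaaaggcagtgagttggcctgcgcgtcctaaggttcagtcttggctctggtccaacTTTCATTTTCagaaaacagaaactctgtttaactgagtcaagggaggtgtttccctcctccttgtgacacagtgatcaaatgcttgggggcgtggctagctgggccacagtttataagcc
Bst2: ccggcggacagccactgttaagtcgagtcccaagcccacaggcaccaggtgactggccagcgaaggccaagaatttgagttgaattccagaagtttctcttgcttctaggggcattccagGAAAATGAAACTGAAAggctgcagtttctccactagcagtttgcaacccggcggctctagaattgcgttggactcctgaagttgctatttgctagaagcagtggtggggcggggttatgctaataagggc
Irf1: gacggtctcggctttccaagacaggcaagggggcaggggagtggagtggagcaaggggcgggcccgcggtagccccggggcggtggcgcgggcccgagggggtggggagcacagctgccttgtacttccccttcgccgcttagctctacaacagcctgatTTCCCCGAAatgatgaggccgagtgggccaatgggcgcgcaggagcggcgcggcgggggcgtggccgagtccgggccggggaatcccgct

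Ifit1 held a pair of ISRE matches that begin 104 and 85 bases before the start, and Ifit3 a pair at 156 and 122 bases. Rsad2 held a match at 120 bases. The Bst2 matches, at 130 and 124 bases, overlap each other, and its GAS match overlaps the first of them. The GAS match of Irf1 lay 90 bases before the start. The 8 measured members with ISRE letters had a median log2 difference between DNCB and sham skin of 0.85 (range 0.57 to 2.87), and the 17 measured members with a promoter and no such letters had 1.11 (range 0.23 to 3.51). The ranges of the sets overlapped.

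The arrays had medians of 4.07 to 4.22 on the log2 scale and correlations across probe sets of 0.920 to 0.987 between arrays. How the arrays were scaled to each other is not known, so the near-equal medians do not show that they were comparable. A test was run for the 30 members whose probe set lay above the array median on at least 2 of 8 arrays. Ifit1, Mx1, Usp18 and Ifit3 lay below the median on both sham arrays and passed only through DNCB-exposed arrays, where they were high. For these the filter was not independent of the comparisons against sham. Of them only Ifit1 was called in DNCB against sham skin, as it was without the filter (limma, adjusted p = 0.0222). Ifit2, above the array median on 1 array, and Cmpk2, on 0 arrays, were not tested, while 21 members were above it on all 8. The basal keratinocyte keratins Krt5 and Krt14 were bright on every array, with log2 signals of at least 11.57, as fits skin. Control RNAs of bacterial origin that were spiked in (7 probe sets) averaged 10.89, 9.97 and 9.87 on the DNCB+HY209 arrays, 10.71, 9.25 and 10.83 on the DNCB arrays and 10.99 and 11.62 on the sham arrays. The sham arrays were thus the highest in this signal, which runs with the comparisons against sham. Gapdh signal at the 3' end over that at the 5' end, a ratio that RNA degradation raises, was 3.24, 2.62 and 2.31 on the DNCB+HY209 arrays, 2.79, 2.10 and 7.35 on the DNCB arrays and 4.46 and 2.81 on the sham arrays.

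The first question was how far the list stood above sham in DNCB skin. At the probe sets used, all 32 members had a higher mean in DNCB than in sham skin. For Eif2ak2 another probe set of similar signal went the other way, by -1.27. Past the threshold (limma, adjusted p under 0.05), 8 members rose, namely Samhd1, Rtp4, Ifit1, Parp12, Helz2, Parp9, Ifi35 and Parp14. No member fell, 22 were not called and 2 were not tested. Among all genes tested, 1.35% rose and 0.451% fell. The members' 8 of 32, with the 2 untested ones counted, lay above that share. The list was chosen with earlier results of these data known, so this excess is a description and not a test. The arrays of the groups did not overlap for 28 of 32 members, all higher in DNCB skin, against 17.5% of all genes higher and 14.4% lower, and the exceptions were Bst2, Isg20, Sp100 and Cmpk2. The median difference of the 32 members was 1.12 on the log2 scale (range 0.23 to 3.51), against 0.019 over all genes with a probe set, of which 52.1% had a difference above 0. At an unadjusted p under 0.05 there were 25 members, all higher, against 1536 genes higher and 544 lower among the 12412 tested.

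**Figure D1:**
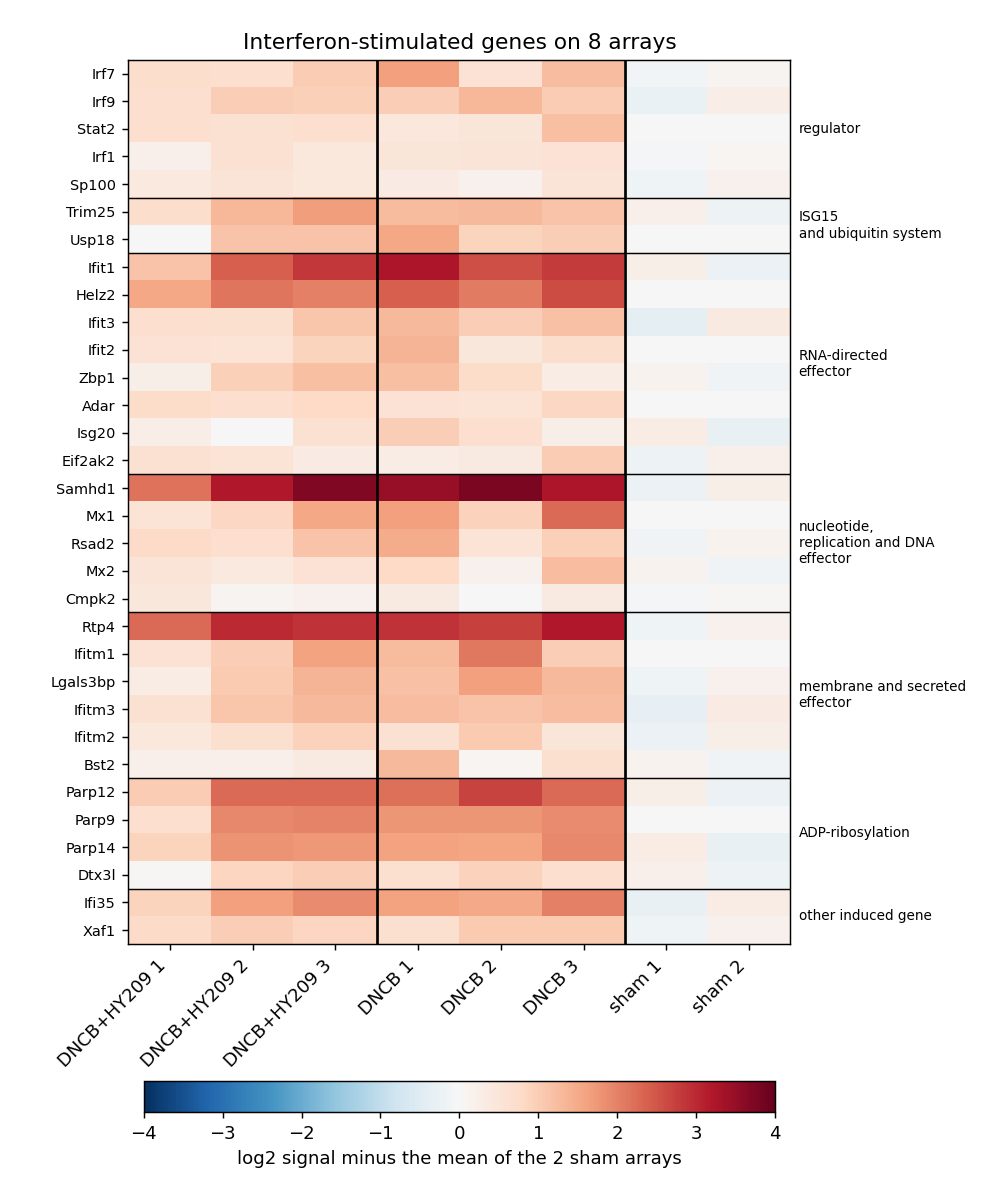
Log2 signal of each of the 32 measured members (rows, grouped by role) on each array (columns), minus that gene's mean over the 2 sham arrays, as colour. The DNCB columns are warm in nearly every row, the darkest rows are Samhd1, Rtp4 and Ifit1, and the first DNCB+HY209 column is paler than the other columns of its group in most rows.

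Of the 5 regulators, 0 passed the test, with a median difference of 0.70. Irf7, the factor that amplifies type I interferon production, had log2 signals of 6.45, 6.41 and 6.76 in DNCB+HY209 skin, 7.38, 6.33 and 6.96 in DNCB skin and 5.63 and 5.85 in sham skin. Every DNCB array was above both sham arrays, but the DNCB arrays spread over 1.05 log2 units, and the difference of 1.15 (SE 0.31) had an adjusted p of 0.121. Irf9, the DNA-binding subunit of the type I complex, had 5.82, 6.12 and 6.07 in DNCB+HY209 skin, 6.11, 6.46 and 6.15 in DNCB skin and 4.86 and 5.41 in sham skin. Its difference of 1.11 (SE 0.24) came closest among the regulators, with an adjusted p of 0.0573. Stat2, its partner, had 5.81, 5.75 and 5.81 in DNCB+HY209 skin, 5.57, 5.63 and 6.34 in DNCB skin and 5.12 and 5.16 in sham skin. The difference was 0.70 (SE 0.25, adjusted p = 0.225), and a single DNCB array carried the highest value.

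Irf1, a factor that type II interferon is known to induce, had 6.82, 7.22 and 7.03 in DNCB+HY209 skin, 7.08, 7.13 and 7.19 in DNCB skin and 6.54 and 6.68 in sham skin. The DNCB and sham arrays were each tight and did not overlap, yet their difference was only 0.52 (SE 0.21, adjusted p = 0.268). Sp100, a component of nuclear bodies, had 4.79, 4.93 and 4.83 in DNCB+HY209 skin, 4.73, 4.58 and 4.92 in DNCB skin and 4.23 and 4.58 in sham skin. It was the member with the lowest difference among those tested, 0.33 (SE 0.19, adjusted p = 0.395), and its DNCB and sham arrays overlapped.

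In the ISG15 and ubiquitin system, 0 of 2 measured members passed the test. Usp18, the protease that strips ISG15 from proteins and restrains the type I receptor, had 4.07, 5.22 and 5.20 in DNCB+HY209 skin, 5.62, 4.96 and 5.03 in DNCB skin and 4.05 and 4.08 in sham skin. The first DNCB+HY209 array was at the sham level, and the difference between DNCB and sham skin was 1.14 (SE 0.36, adjusted p = 0.177). Trim25, a ubiquitin ligase that activates the RNA sensor RIG-I, averaged 8.67 ± 0.49 in DNCB+HY209 skin, 8.67 ± 0.09 in DNCB skin (SD, n = 3 each) and 7.43 ± 0.27 in sham skin (n = 2). The difference of DNCB from sham was 1.24 (SE 0.30, adjusted p = 0.0908), and its 3 probe sets ran from -0.0012 to 1.27. The set at -0.0012 lay below the median of every array.

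Of the 8 RNA-directed effectors, 2 rose in DNCB skin, Ifit1 and Helz2. Ifit1, which binds viral RNA that lacks the host's cap methylation, had 4.46, 5.71 and 6.14 in DNCB+HY209 skin, 6.54, 5.90 and 6.11 in DNCB skin and 3.55 and 3.07 in sham skin. Every DNCB array stood more than 2 log2 units above both sham arrays, and the difference was 2.87 (SE 0.45, adjusted p = 0.0237), or 7.32-fold. Both sham values lay below their arrays' medians, so this fold is approximate. Helz2, a helicase known as a nuclear receptor coactivator, had 5.76, 6.34 and 6.20 in DNCB+HY209 skin, 6.60, 6.30 and 6.80 in DNCB skin and 4.23 and 4.18 in sham skin. Its difference was 2.36 (SE 0.24, adjusted p = 0.00495), or 5.14-fold, with sham arrays that nearly coincided and stood near the array median.

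The other RNA-directed members did not pass. Ifit3, which works with Ifit1, had 4.05, 4.03 and 4.50 in DNCB+HY209 skin, 4.69, 4.37 and 4.55 in DNCB skin and 3.01 and 3.76 in sham skin, a difference of 1.15 for DNCB (SE 0.26, adjusted p = 0.0714). Ifit2, of the same family, was below the array median on all arrays but DNCB array 1, at 3.58, 3.56 and 3.89 in DNCB+HY209 skin, 4.38, 3.46 and 3.71 in DNCB skin and 2.99 and 3.03 in sham skin. All 3 Ifit genes of the list were thus higher on every DNCB array than on either sham array, although only Ifit1 was called. Adar, which edits adenosine in double-stranded RNA, had 7.17, 7.10 and 7.22 in DNCB+HY209 skin, 7.01, 6.97 and 7.25 in DNCB skin and 6.46 and 6.42 in sham skin. Zbp1, a sensor of Z-form nucleic acid that can trigger cell death, had 5.05, 5.79 and 6.02 in DNCB+HY209 skin, 6.02, 5.57 and 5.12 in DNCB skin and 4.97 and 4.69 in sham skin. The differences of DNCB from sham were 0.64 for Adar (SE 0.20, adjusted p = 0.172) and 0.74 for Zbp1 (SE 0.34, adjusted p = 0.312). Isg20, an exonuclease of single-stranded RNA, differed by 0.62 (SE 0.29, adjusted p = 0.319) with overlapping arrays. Eif2ak2, the kinase PKR that halts translation on sensing double-stranded RNA, differed by 0.57 (SE 0.27, adjusted p = 0.321) at the probe set used. The 3 probe sets of Eif2ak2 went from -1.27 to 0.57 and so did not share a sign. The set at -1.27 averaged 7.27 in sham and 5.99 in DNCB skin, against 5.80 and 6.37 at the set used. The direction of Eif2ak2 thus depends on the probe set.

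Among the 5 members that act on nucleotides, replication or DNA, Samhd1 rose and had the largest difference of the list. Samhd1, the enzyme that breaks down deoxynucleotides and so limits viral DNA synthesis, had 7.75, 8.79 and 9.30 in DNCB+HY209 skin, 9.09, 9.38 and 8.84 in DNCB skin and 5.37 and 5.82 in sham skin. All 6 DNCB-exposed arrays were clear of sham, and DNCB skin was 3.51 log2 units higher (SE 0.42, adjusted p = 0.0108), or 11.4-fold. Its 5 probe sets had differences of 0.48 to 3.51. Mx1, a dynamin-like GTPase that blocks influenza virus, had 4.68, 4.94 and 5.66 in DNCB+HY209 skin, 5.74, 5.04 and 6.37 in DNCB skin and 4.09 and 4.14 in sham skin. Its mean difference was 1.60, but the DNCB arrays spread over 1.33 log2 units (SE 0.40, adjusted p = 0.0958). Balb/c is among the inbred strains known to carry a defective Mx1 allele, and where the probe set lies relative to that defect was not tested.

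Rsad2 (viperin), which makes a chain-terminating nucleotide, had 6.47, 6.39 and 6.86 in DNCB+HY209 skin, 7.18, 6.26 and 6.66 in DNCB skin and 5.57 and 5.85 in sham skin. Its difference from sham in DNCB skin was 0.99 (SE 0.30, adjusted p = 0.157). Mx2, a related GTPase, differed by 0.73 (SE 0.30, adjusted p = 0.27). Cmpk2, a mitochondrial nucleotide kinase, stayed below the array medians on all arrays, at 3.42 to 3.75 in DNCB+HY209 skin, 3.29 to 3.67 in DNCB skin and 3.25 and 3.37 in sham skin.

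Of the 6 membrane and secreted members, Rtp4 rose. Rtp4, an interferon-induced chaperone that carries receptors to the cell surface, had 6.46, 7.19 and 7.09 in DNCB+HY209 skin, 7.08, 6.95 and 7.41 in DNCB skin and 4.04 and 4.37 in sham skin. The DNCB and sham arrays did not overlap, and DNCB skin was 2.94 log2 units higher (SE 0.28, adjusted p = 0.00343), or 7.69-fold, the lowest adjusted p of the list. Both sham values stood near the array medians, so this fold is approximate. The other probe set of Rtp4 differed by only 0.086, but at 2.77 to 3.31 it lay below the median of every array, where a change could hardly be read. The Ifitm genes, whose proteins block viral fusion at membranes, were not called. Ifitm3 had 9.94, 10.42 and 10.62 in DNCB+HY209 skin, 10.57, 10.46 and 10.56 in DNCB skin and 8.99 and 9.67 in sham skin. The DNCB arrays of Ifitm3 lay within 0.10 of each other, and the difference from sham was 1.20 (SE 0.28, adjusted p = 0.075). Ifitm1 differed by 1.46 (SE 0.38, adjusted p = 0.116) and Ifitm2 by 0.72 (SE 0.28, adjusted p = 0.251). Lgals3bp, a secreted glycoprotein, differed by 1.37 (SE 0.32, adjusted p = 0.0753). Bst2 (tetherin), which holds budding virus at the cell surface, had 4.52, 4.52 and 4.67 in DNCB+HY209 skin, 5.62, 4.42 and 4.97 in DNCB skin and 4.45 and 4.20 in sham skin, so that DNCB array 2 fell between the sham arrays.

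The ADP-ribosylation genes had the highest median of any role, 1.75, and 3 of 4 rose. Parp12, a mono-ADP-ribosyltransferase that restrains translation, had 5.40, 6.64 and 6.65 in DNCB+HY209 skin, 6.56, 7.06 and 6.64 in DNCB skin and 4.60 and 4.14 in sham skin. Its difference from sham in DNCB skin was 2.38 (SE 0.39, adjusted p = 0.0274). Parp9, which acts in a complex with the ubiquitin ligase Dtx3l, had 5.83, 7.07 and 7.15 in DNCB+HY209 skin, 6.92, 6.93 and 7.04 in DNCB skin and 5.13 and 5.19 in sham skin. In both genes the first DNCB+HY209 array stood more than 1 log2 unit below the other 2 of its group. Parp9 differed by 1.80 (SE 0.37, adjusted p = 0.0479), just past the threshold. Parp14, a cofactor of STAT6 in IL-4 signalling, had 5.75, 6.65 and 6.57 in DNCB+HY209 skin, 6.46, 6.44 and 6.79 in DNCB skin and 5.16 and 4.55 in sham skin. The difference was 1.71 (SE 0.32, adjusted p = 0.0387), against 0.24 at its other probe set, which lay below the median of every array. Dtx3l itself differed by 0.74 (SE 0.30, adjusted p = 0.27), against 1.19 at its other probe set.

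The remaining pair were Ifi35 and Xaf1. Ifi35, a leucine zipper protein that binds Nmi, rose, with 8.40, 9.15 and 9.40 in DNCB+HY209 skin, 9.11, 9.03 and 9.53 in DNCB skin and 7.22 and 7.79 in sham skin. Its difference was 1.71 (SE 0.34, adjusted p = 0.046), and its 3 probe sets differed by 1.14 to 1.71. Xaf1, an antagonist of the apoptosis inhibitor XIAP, differed by 0.90 (SE 0.23, adjusted p = 0.101) without overlap.

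**Figure D2:**
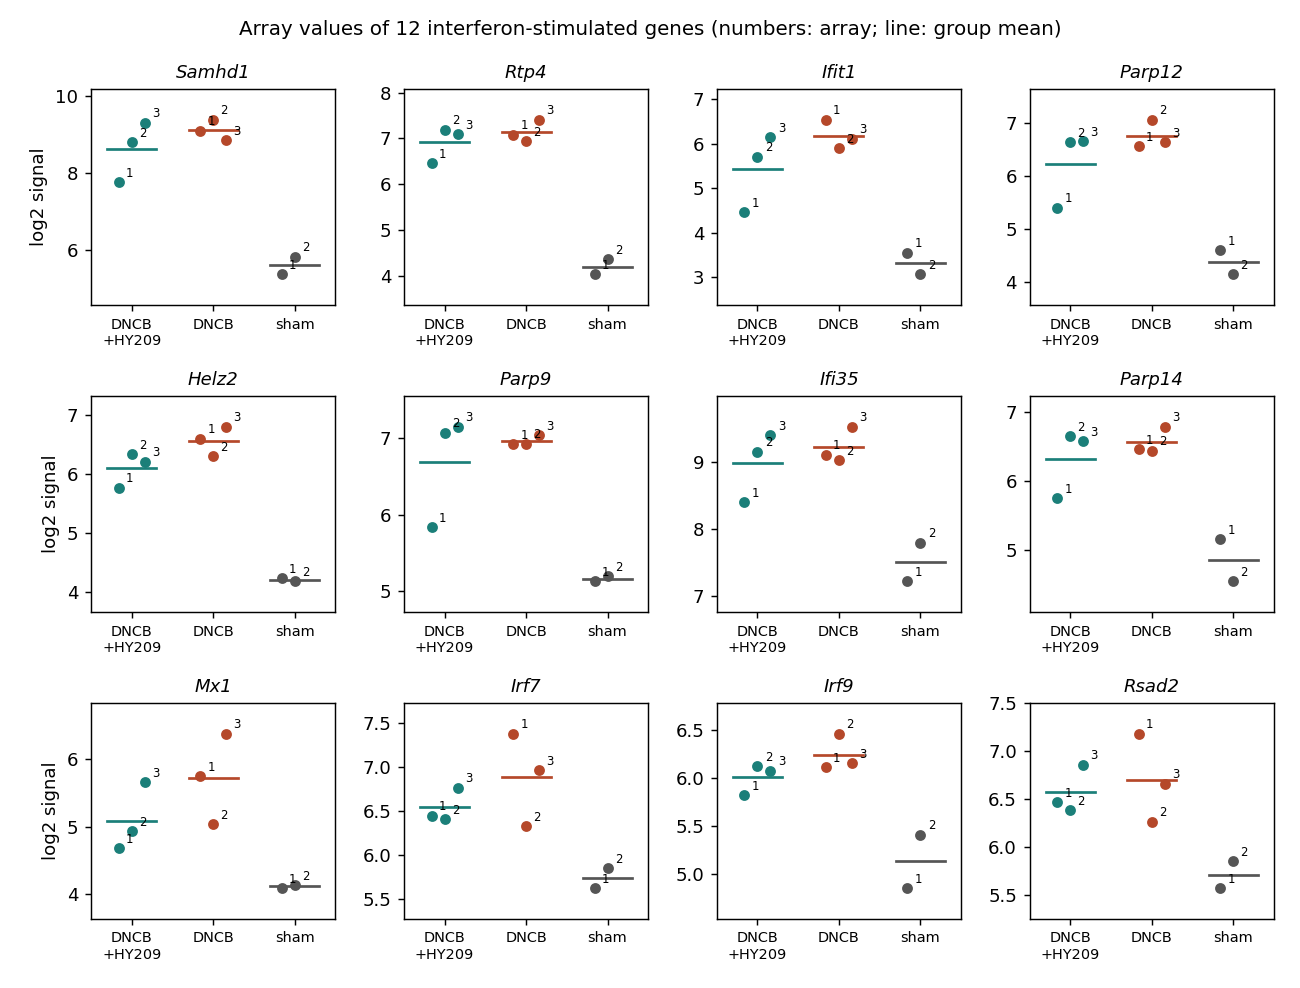
Log2 signal of 12 members on every array (points, numbered by array) with the group mean (line), DNCB+HY209 left, DNCB in the middle and sham right, each panel on its own axis. In the upper 8 panels, which hold the members called between DNCB and sham, every DNCB array is above both sham arrays and DNCB+HY209 array 1 is the lowest of its group.

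How firmly these 8 calls stood depended on single arrays. Without sham array 2 only Rtp4 was called. Leaving out sham array 1 or DNCB array 1 left 2 called members in each case, and leaving out DNCB array 2 left 3. With DNCB array 3, DNCB+HY209 array 2 or DNCB+HY209 array 3 set aside, 5 were called each time. Setting aside DNCB+HY209 array 1 gave 12, all higher in DNCB skin. Rtp4 was called in all 8 of these fits. Helz2 was lost without sham array 2 (adjusted p = 0.0593). Samhd1 was lost without sham array 1 (0.0673), sham array 2 (0.0611) or DNCB array 1 (0.0506), each an adjusted p. Ifit1 and Parp12 were lost without either sham array, DNCB array 1 or DNCB array 2, at adjusted p of 0.0623 to 0.15 for Ifit1 and 0.082 to 0.163 for Parp12. Parp9, Ifi35 and Parp14 were called only with all arrays or without DNCB+HY209 array 1, and their adjusted p was 0.0502 to 0.24 in the other fits. With the spike-in signal as a covariate Helz2 and Rtp4 remained, and without the arrays of highest and lowest spike-in signal, sham array 2 and DNCB array 2, no member was called, although all 30 tested members stayed above 0.

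The second question was whether HY209 changed the list in DNCB skin. No member differed between DNCB+HY209 and DNCB skin (limma, adjusted p of 0.9998 for every tested member), as no gene on the arrays did, in either direction (0% higher and 0% lower). At an unadjusted p under 0.05 there were 0 members, and 31 genes higher and 129 lower among all genes. The means of 28 of 32 members were below those of DNCB skin, and those of Sp100, Adar, Zbp1 and Cmpk2 above, where 51.3% of all genes were above. The median difference was -0.23 (range -0.74 to 0.11), against 0.006 over all genes. The arrays of the groups overlapped for all 32 members, and among all genes 2.48% were higher without overlap and 2.83% lower. With 3 arrays a group and adjustment over all genes, a missed threshold does not show that the members were equal.

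The lowest members by the moderated t statistic were Helz2, at -0.46 (SE 0.22), Ifit1, at -0.74 (SE 0.40), and Mx1, at -0.63 (SE 0.35). The highest were Sp100, at 0.11 (SE 0.17), Adar, at 0.087 (SE 0.18), and Zbp1, at 0.049 (SE 0.31). In the regulators the differences were -0.35 for Irf7 (SE 0.27), -0.24 for Irf9 (SE 0.21), -0.11 for Irf1 (SE 0.19) and -0.058 for Stat2 (SE 0.23). All these lay within about 2 standard errors of 0. The comparison shares the DNCB arrays with that against sham, so a member that is high by chance on the DNCB arrays would differ in both, and no relation between them is drawn.

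A single array carried most of the lower values. DNCB+HY209 array 1 was the lowest of its group for 22 of 32 members, where it was so for 39.5% of all genes, and it lay below every DNCB array for 20 members, against 22.4% of all genes. DNCB+HY209 array 2 lay below every DNCB array for 8 members and array 3 for 3, against 18.2% and 17.9% of all genes. The mean log2 signal of the 32 members was 5.91, 6.32 and 6.51 on the DNCB+HY209 arrays, 6.55, 6.38 and 6.53 on the DNCB arrays and 5.18 and 5.25 on the sham arrays. The third DNCB+HY209 array was thus at the level of DNCB skin, and the first lay between DNCB and sham skin. Without array 1 the median of the 30 tested members was -0.064, with 11 of 30 above 0, and among these Parp9, Ifi35 and Parp14 were then higher than in DNCB skin, by 0.15, 0.058 and 0.051, still uncalled.

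**Figure D3:**
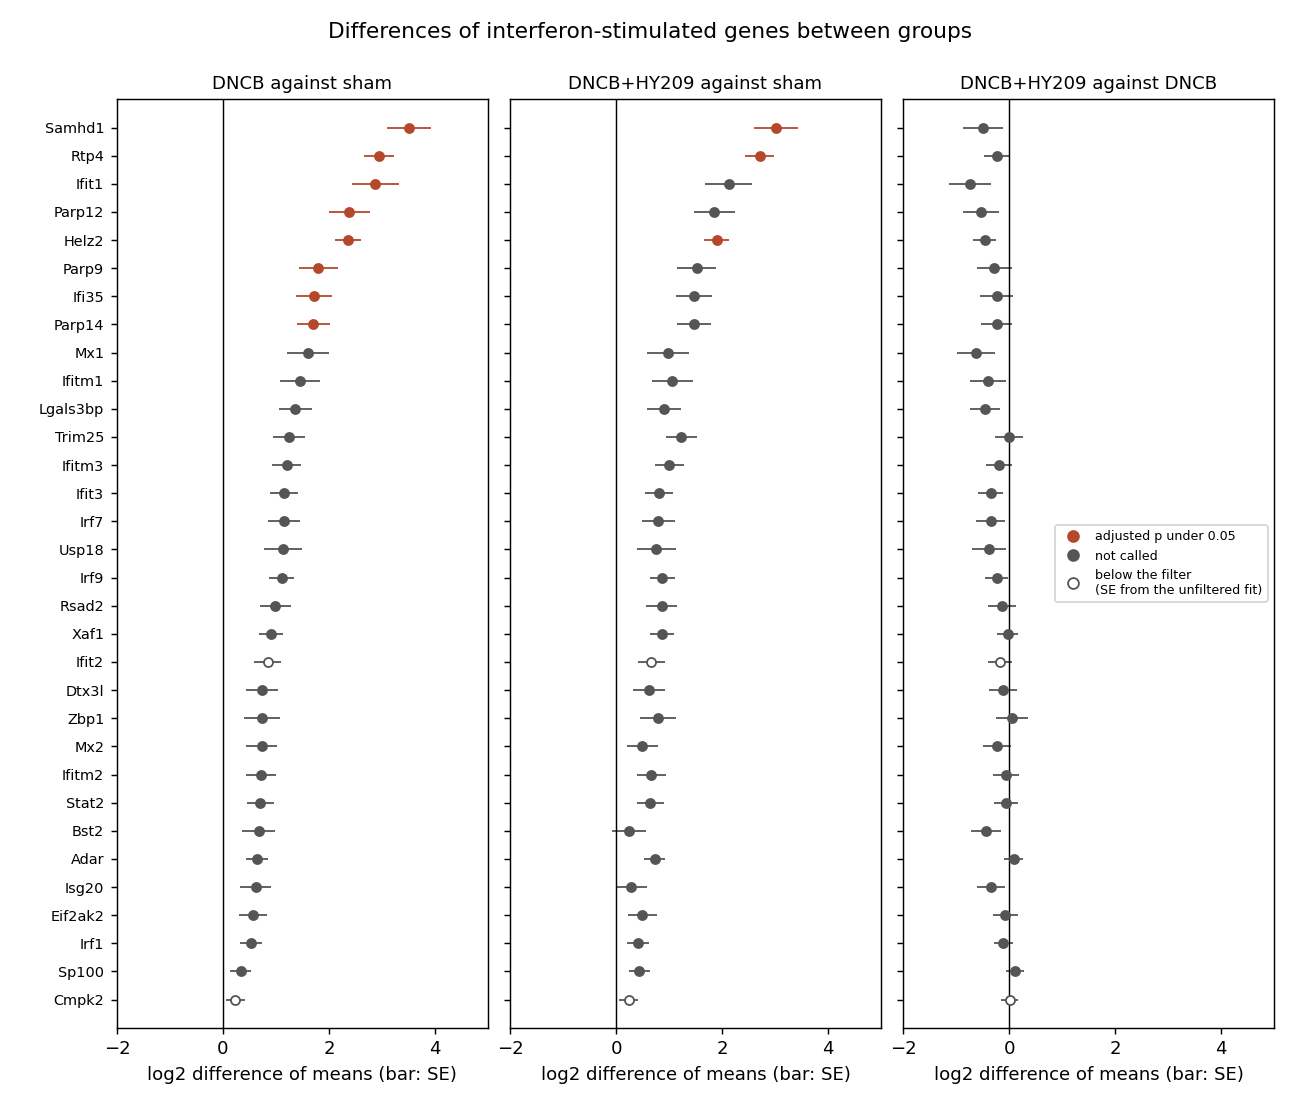
Log2 difference of means (x axis, bars are the moderated standard error) for each of the 32 measured members (rows, ordered by the first panel) in the 3 comparisons. All points lie right of 0 against sham, with 8 called for DNCB and 3 for DNCB+HY209, whereas against DNCB the points lie between -0.74 and 0.11 and none is called.

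The third question was where HY209-treated skin stood against sham. At the probe sets used, all 32 members had a higher mean in DNCB+HY209 than in sham skin. The opposing probe set of Eif2ak2 differed by -1.63. Rtp4, Helz2 and Samhd1 rose past the threshold. Rtp4 was 2.71 log2 units higher (SE 0.28, adjusted p = 0.00677), or 6.55-fold, from sham values near the array medians. Helz2 was 1.90 higher (SE 0.24, adjusted p = 0.0202), or 3.73-fold. Samhd1 was 3.02 higher (SE 0.42, adjusted p = 0.0293), or 8.10-fold. These 3 were also called for DNCB without HY209. No member fell, where 0.266% of all genes tested rose and 0.137% fell. The arrays did not overlap for 29 of 32 members, all higher, against 21.4% of all genes higher and 17.6% lower, and the exceptions were Usp18, Dtx3l and Isg20. The median difference was 0.83 (range 0.24 to 3.02), against 0.026 over all genes, of which 52.7% were above 0. At an unadjusted p under 0.05 there were 22 members, all higher, against 1768 genes higher and 633 lower among the 12412 tested.

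The 5 members called for DNCB alone had smaller differences from sham with HY209, namely 2.13 for Ifit1 (SE 0.45, adjusted p = 0.0889), 1.86 for Parp12 (SE 0.39, adjusted p = 0.0876), 1.52 for Parp9 (SE 0.37, adjusted p = 0.121), 1.48 for Ifi35 (SE 0.34, adjusted p = 0.113) and 1.47 for Parp14 (SE 0.32, adjusted p = 0.0965). That these passed in one comparison and not in the other does not show a difference between the treatments, which was tested directly above and found for no member. Without DNCB+HY209 array 1 these 5 and Trim25 were called too, 9 members in all. Leaving out DNCB array 1, DNCB+HY209 array 2 or DNCB+HY209 array 3 left Rtp4 alone. Without sham array 1 or sham array 2, the median of the 30 tested members was 0.74 or 1.02. Only 1 sham array then remains, too few to weigh the calls.

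No gene of an interferon or of its receptors was called. A further list of 42 names was chosen with results of these data known, of which 34 had a probe set and 28 were tested. It held ligands, receptors, kinases, transcription factors, sensors, feedback genes and 4 genes listed for ISG15 conjugation. The differences of these 4 between DNCB and sham skin were -0.60 for Herc6, -0.47 for Uba7, 0.62 for Uba6 and 0.29 for Ube2l6. None of them was called, and Ube2l6 was not tested. Ifih1 (MDA5), a cytoplasmic sensor of long double-stranded RNA, was the 1 gene that rose in DNCB skin, and none fell. It had 5.90, 6.78 and 6.77 in DNCB+HY209 skin, 6.72, 6.53 and 6.88 in DNCB skin and 4.70 and 4.88 in sham skin, a difference of 1.92 for DNCB (SE 0.29, adjusted p = 0.0234). With HY209 it was 1.69 above sham (SE 0.29, adjusted p = 0.0542). The list's median was 0.34 between DNCB and sham skin, with 23 of 34 above 0. It was -0.093 between DNCB+HY209 and DNCB skin, with 12 of 34 above 0, and 0.29 between DNCB+HY209 and sham skin, with 21 of 34 above 0, and no gene was called in these.

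The interferon genes themselves lay low. Ifnb1, a type I interferon, had 3.64, 3.41 and 3.40 in DNCB+HY209 skin, 3.86, 3.46 and 3.78 in DNCB skin and 3.66 and 3.55 in sham skin, below the array medians. Ifng, the type II interferon, had 2.63, 2.68 and 2.41 in DNCB+HY209 skin, 2.69, 2.31 and 2.57 in DNCB skin and 2.54 and 2.41 in sham skin. Neither was tested, and at this signal a change could not be read. Ifna4, another type I interferon, had a difference of -0.21 between DNCB and sham skin (SE 0.34, adjusted p = 0.748). Ifnk, Ifne, Ifnl2 and Ifnl3 were not analysed here. Of the type I receptor subunits, Ifnar1 differed by 0.38 between DNCB and sham skin (SE 0.18, adjusted p = 0.318). Ifnar2 differed by 0.90 (SE 0.31, adjusted p = 0.21).

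Some markers of other cells were also higher in DNCB than in sham skin, and others were not. Of 4 pan-leukocyte markers 3 rose in DNCB against sham skin. Ptprc (CD45) was 2.77 log2 units higher (SE 0.50, adjusted p = 0.0368), Coro1a 2.19 (SE 0.42, adjusted p = 0.0413) and Cd52 2.04 (SE 0.38, adjusted p = 0.0398). Laptm5 went the other way, by -0.51 (SE 0.40, adjusted p = 0.505), and was not called. The mean log2 signal of these 4 was 5.69, 6.49 and 6.66 on the DNCB+HY209 arrays, 6.68, 6.62 and 6.65 on the DNCB arrays and 4.74 and 5.32 on the sham arrays, so the first DNCB+HY209 array was low here too. In bulk skin, fewer cells of a type and less RNA per cell cannot be told apart, and the part of leukocyte number in the members' differences was not tested. Neutrophil markers averaged 5.08, 5.55 and 5.92 on the DNCB+HY209 arrays, 6.19, 6.45 and 5.66 on the DNCB arrays and 4.07 and 4.12 on the sham arrays, with 2 of the 4 tested markers called. These were S100a8, at 5.73 above sham in DNCB skin, and S100a9, at 6.01, which carry the mean, since the other 4 measured markers differed by -0.34 to 0.46 (Ngp -0.34, Mmp8 -0.17, Cxcr2 0.35, Csf3r 0.46). Macrophage markers averaged 5.58, 5.35 and 6.11 on the DNCB+HY209 arrays, 6.37, 6.83 and 5.51 on the DNCB arrays and 5.11 and 5.38 on the sham arrays, with 1 of 9 called. DNCB array 3, low in this list, was not low for the members.

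Plasmacytoid dendritic cells are known as strong producers of type I interferon, and 0 of their 4 tested markers were called, with 1 more below the filter. All 5 averaged 5.53, 6.14 and 6.29 on the DNCB+HY209 arrays, 6.16, 6.40 and 5.97 on the DNCB arrays and 5.65 and 5.55 on the sham arrays. The most specific, Siglech, differed by 0.032 (SE 0.20, adjusted p = 0.941) between DNCB and sham skin. Ly6d differed most, by 1.68 (SE 0.91, adjusted p = 0.366), so the means lean on this gene. Ccr9 differed by 0.68, Tcf4 by 0.36 and Spib by 0.15. T cell markers, of which 4 of 7 were tested and 0 called, averaged 4.24 to 4.35 on the DNCB+HY209 arrays, 4.23 to 4.32 on the DNCB arrays and 4.18 and 4.30 on the sham arrays. Dendritic cell markers, of which 2 of 6 were tested and 0 called, averaged 3.96 to 3.98 on the DNCB+HY209 arrays, 3.84 to 4.12 on the DNCB arrays and 3.97 and 4.13 on the sham arrays. The means of the T cell and dendritic cell lists lay near the array medians, and the untested markers fell below the filter.

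Skin structure differed as well. Endothelial markers averaged 5.13, 5.67 and 5.68 on the DNCB+HY209 arrays, 6.24, 6.48 and 5.74 on the DNCB arrays and 4.74 and 4.62 on the sham arrays, with 4 of 7 higher in DNCB than in sham skin. Hair follicle markers averaged 8.87, 6.48 and 6.55 on the DNCB+HY209 arrays, 5.57, 5.81 and 7.96 on the DNCB arrays and 10.01 and 7.17 on the sham arrays. Of these 8 markers, 1 was lower in DNCB skin by the test, the keratin-associated Krtap3-1, and no keratin of the list was called. Keratinocyte markers averaged 10.86, 12.20 and 12.69 on the DNCB+HY209 arrays, 12.06, 12.54 and 11.48 on the DNCB arrays and 11.72 and 11.63 on the sham arrays, with Krt15 lower in DNCB skin by the test. DNCB+HY209 array 1 was thus the highest of its group in hair follicle markers and in spike-in signal, and the lowest in keratinocyte markers, leukocyte markers and the members. Fibroblast markers ran over 8.37 to 8.58 in DNCB+HY209 skin, 8.85 to 10.01 in DNCB skin and 8.86 to 9.69 in sham skin. Fat markers ran over 4.49 to 5.38 in DNCB+HY209 skin, 4.63 to 6.11 in DNCB skin and 6.37 to 7.20 in sham skin, and no marker of these lists was called. Muscle markers ran over 10.49 to 11.33 in DNCB+HY209 skin, 9.80 to 12.04 in DNCB skin and 9.24 to 10.66 in sham skin, with Myh2 above sham in both by the test. The part of tissue makeup and array quality in the members' values was not tested beyond the covariate fits.

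**Figure D4:**
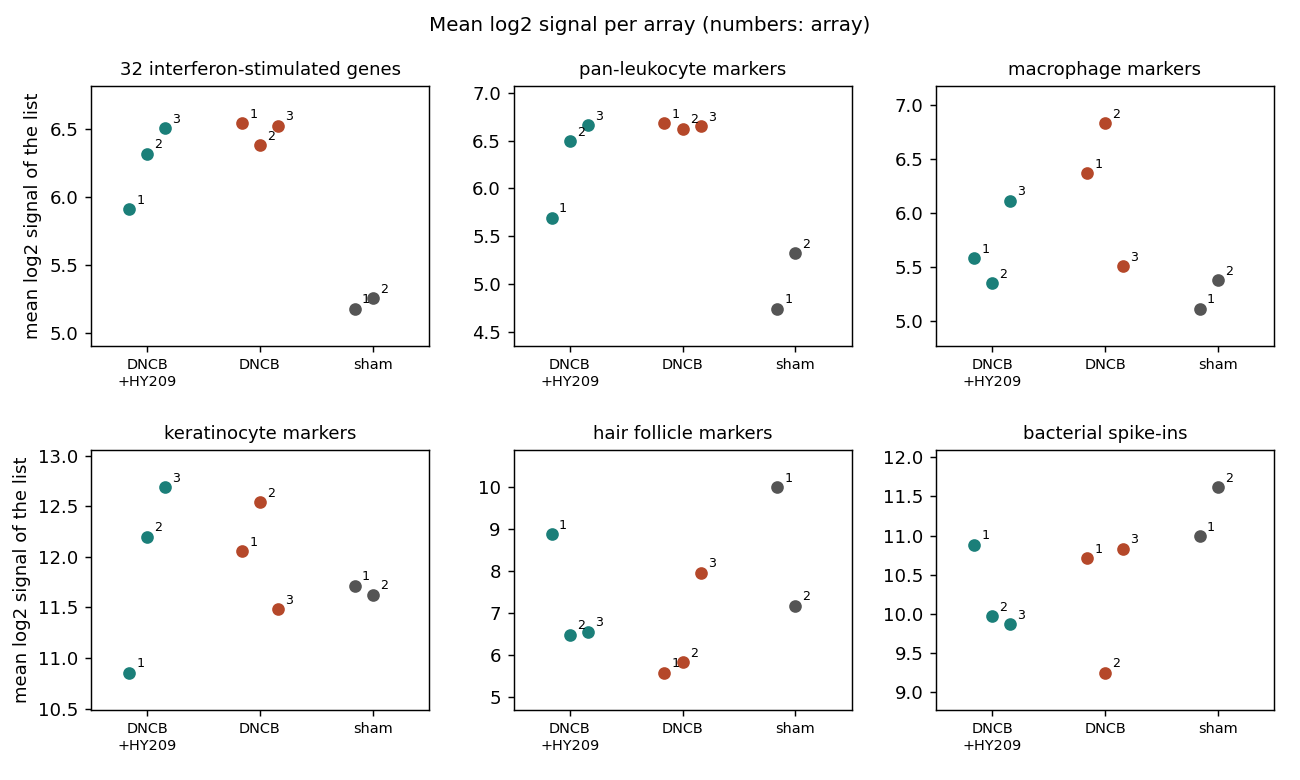
Mean log2 signal per array (points, numbered by array) of the 32 members, of 4 marker lists and of the bacterial spike-in probe sets, DNCB+HY209 left, DNCB in the middle and sham right, each panel on its own axis. In the panels of members, leukocyte markers and keratinocyte markers DNCB+HY209 array 1 is the lowest of its group, and in those of hair follicle markers and spike-ins it is the highest.

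Within DNCB skin the members also split between arrays. DNCB array 2 was the lowest of its group for 17 of 32 members, among them Irf7, Usp18, the 3 Ifit genes, Mx1, Mx2, Rsad2 and Bst2, and the highest for 9, among them Irf9, Samhd1, Parp12, Ifitm1, Ifitm2 and Lgals3bp. It was the lowest for 38.2% and the highest for 41.7% of all genes, so this array stood at an end of the group for many genes. The DNCB arrays of Mx1 spread over 1.33 log2 units, those of Bst2 over 1.21 and those of Ifitm1 over 1.11, against 0.10 for Ifitm3, 0.11 for Irf1 and 0.11 for Parp9.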

How the data were processed

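Total RNA of frozen skin was amplified from the 3' end, biotin-labelled and hybridised to Affymetrix mouse arrays, 1 per sample. The deposited values were log2 signals per probe set, a scale read from their range. Affymetrix Expression Console and MAS5 are named, per the submitters' processing notes, and the sources used here do not give how the authors normalized between arrays. The labels name the 430A 2.0 array, whereas the table holds 45101 probe sets, annotated here by the larger array. Of these, 64 were controls, 34945 had 1 gene symbol, 932 several and 9160 were not listed. No detection calls were used.

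The members and all lists were chosen with earlier results of these data known. The 32 matched members had 54 probe sets. Genes above the array median on at least 2 of 8 arrays (12412) were tested with limma 3.58.1 in R 4.3.3 (lmFit, eBayes with an intensity trend), in 1 fit of 8 arrays, two-sided, Benjamini-Hochberg adjusted over all 12412, at 0.05. The script was tested on simulated data. The number of arrays limits precision. All members are described by role, with array values for those called, Irf1, Irf7, Irf9, Stat2, the 3 highest and 3 lowest by t between DNCB+HY209 and DNCB, and some further members as examples. Pathway genes are named if called, with the interferons, Ifnar1, Ifnar2 and the genes listed for ISG15 conjugation. Figures were drawn with Python 3.11.15.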

Additional observations from a re-analysis of the deposited data

How the results depend on the processing

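Against the 8 members higher in DNCB than in sham skin, quantile normalization gave 9, median-centred arrays 6, an unfiltered fit 7, a stricter filter 8, no intensity trend 8, a fit of only these groups 8 and the Gapdh ratio as covariate 12, whereas averaging probe sets gave 5, the spike-in covariate 2 and leaving out sham array 2 and DNCB array 2, the extremes of spike-in signal, 0. Against the 3 members higher in DNCB+HY209 than in sham skin, a fit of only these groups gave 1, the spike-in covariate 0 and the fit without the spike-in extremes 0. Genes called between DNCB and sham numbered 224, and 450 with the Gapdh covariate, 16 with the spike-in covariate and 7 without the spike-in extremes. Genes called between DNCB+HY209 and sham numbered 50, and 96 with quantile normalization, 14 with the mean of probe sets, 16 in the fit of only these groups, 10 with the spike-in covariate and 8 without the spike-in extremes. The cause of these shifts was not tested. With each array left out in turn, members higher ran from 1 to 12 for DNCB against sham and from 0 to 9 for DNCB+HY209 against sham, and genes called from 15 to 349 and from 9 to 283. The members' median for DNCB against sham ran from 0.90 (without sham array 1) to 1.17. Between samples of the same replicate number, deviations from the group means correlated at -0.603 to 0.276. In groups of 2 or 3 arrays such deviations are tied to each other, so these values cannot decide whether the numbers pair the samples. Using the number as a block left 3 and 1 members and 35 and 12 genes called for DNCB and DNCB+HY209 against sham, fewer than without it. No member or gene was called between DNCB+HY209 and DNCB in any fit. In that comparison, among the 16 members followed singly, uncalled differences turned sign for Zbp1 (-0.012 with quantile normalization, -0.00804 with the mean of probe sets, -0.088 with the Gapdh covariate, and -0.17 to 0.34 with an array left out), Stat2 (0.080 with the Gapdh covariate, -0.20 to 0.19), Ifi35 (-0.45 to 0.058), Parp9 (-0.51 to 0.15) and Parp14 (-0.40 to 0.051). Without DNCB+HY209 array 1, further members turned too, since 11 of 30 tested members were then above 0, against 3 of 30 with all arrays. Of the values of 16 single members under all alternatives, 812 kept direction and side of the threshold, 82 lost a call, 7 gained one and 11 turned sign. With the mean of probe sets Eif2ak2 was below sham in both DNCB groups, by -0.25 and -0.46, and without sham array 2, alone or with DNCB array 2, Isg20 lay at -0.0034 in DNCB+HY209 against sham. Otherwise every tested member stayed above sham. Quantile normalization moved the median of all tested genes from 0.15 to 0.00015 for DNCB against sham and from 0.20 to 0.019 for DNCB+HY209 against sham, and the members' medians were then 0.97 and 0.74. No detection calls were used, so values near the array median, as for Ifit2, Ifit3, Cmpk2, Isg20 and Usp18, limit what can be read.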
